A study of Mus musculus with 9 samples.

Results

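The genes described here encode heat shock proteins and molecular chaperones, with the 2 heat shock factors and a few cochaperones. They were taken by symbol: names starting with Hsp, Dnaja, Dnajb, Dnajc or Cct followed by their family letter or number, plus Tcp1, Hsf1, Hsf2, Bag3, Stip1 and Ahsa1, without symbols that end in -ps or in -ps and a number. The rule matched 103 rows, of which 15 were such pseudogene rows, and left 88 genes of the 45535 rows with a gene symbol. Of the 88 genes, 80 averaged 10 normalized counts or more over all samples and were tested, and the other 8 were Cct6b, Cct8l1, Dnajb8, Dnajc22, Dnajc5b, Dnajc5g, Hspb2 and Hspb3, at no more than 15.7 normalized counts in any sample.

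RNA was sequenced from CD103+ dendritic cells of mouse lung, taken from mice of genotype C57/BL6j after 7 days of bleomycin, an agent that injures the lung. All samples passed through collagenase digestion and magnetic bead isolation. The 5 samples before culture (before 1 to 5) were harvested directly, and the 4 samples after culture (after 1 to 4) spent 18 h in RPMI medium with 10% FBS and 1% pen/strep. There was no sample from a lung without bleomycin, and the labels leave unsaid whether each sample is 1 mouse or a pool, so the p-values measure the spread between these samples.

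Heat shock proteins help other proteins to fold, keep unfolded ones from clumping and hand damaged ones on for degradation. HSP70 proteins bind short stretches of a client in a cycle driven by ATP: J-domain proteins (the Dnaj genes) bring the client and start ATP hydrolysis, and nucleotide exchange factors end the cycle. HSP90 completes kinases, receptors and other signalling proteins, the CCT ring folds actin and tubulin, and Hspd1 with Hspe1 forms the chaperonin of the mitochondrial matrix. Under stress, the transcription factor HSF1 is released from chaperones, forms trimers and binds heat shock elements, inverted repeats of the unit GAA, in front of genes such as Hspa1a and Dnajb1. In dendritic cells, the ER chaperone encoded by Hsp90b1 is known to be needed for the folding of most Toll-like receptors and of many integrins.

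The 250 bases before the start sites of Hspa1a and Hspa1b, the stress-inducible HSP70 genes, are shown because the pair had the largest falls among the abundant members and the upstream regions of the 2 genes are nearly the same. They lie at chr17:34972157-34972406, minus strand, and at chr17:34959239-34959488, minus strand, in build GRCm38.p6 (RefSeq), are written 5′ to 3′ and match at 247 of 250 positions (98.8%). Capitals mark a GAANNTTC match, a head-to-head pair of GAA units, which begins at position −104 from the start in both.
Hspa1a: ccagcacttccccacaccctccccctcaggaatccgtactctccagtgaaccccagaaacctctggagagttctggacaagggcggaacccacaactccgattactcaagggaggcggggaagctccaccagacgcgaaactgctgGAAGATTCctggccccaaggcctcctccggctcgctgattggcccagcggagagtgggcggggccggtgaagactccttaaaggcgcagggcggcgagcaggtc
Hspa1b: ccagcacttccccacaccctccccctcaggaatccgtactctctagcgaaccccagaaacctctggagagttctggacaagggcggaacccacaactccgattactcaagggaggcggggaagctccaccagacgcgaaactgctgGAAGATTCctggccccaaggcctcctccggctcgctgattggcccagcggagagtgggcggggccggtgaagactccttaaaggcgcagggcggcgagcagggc

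Pairs or runs of GAA units occur near other members too, of which 3 genes are shown, and 2 genes of ER chaperones carry the ER stress element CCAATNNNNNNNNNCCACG, so 30 bases around each match are shown with the match in capitals (RefSeq, GRCm38.p6, on the strand of the gene). Dnaja1 encodes a J-domain partner of cytosolic HSP70, and its stretch is chr4:40722333-40722362, plus strand. Hspe1 encodes the lid of the mitochondrial chaperonin, and its stretch is chr1:55088053-55088082, plus strand. Dnajb6 encodes a J-domain protein that holds back aggregation, at chr5:29735844-29735873, plus strand. Hspa5 encodes the HSP70 of the ER (BiP), at chr2:34772020-34772049, plus strand, and Hsp90b1 its HSP90 (GRP94), with 1 of its 2 matches at chr10:86705632-86705661, minus strand.
Dnaja1: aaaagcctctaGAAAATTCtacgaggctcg
Hspe1: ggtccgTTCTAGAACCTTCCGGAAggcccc
Dnajb6: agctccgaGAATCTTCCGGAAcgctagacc
Hspa5: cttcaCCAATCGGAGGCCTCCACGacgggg
Hsp90b1: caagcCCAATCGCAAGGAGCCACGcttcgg

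Depth in rows with a symbol was 14.7 to 28.8 M reads before and 26.0 to 35.3 M after culture, and the table's values are normalized counts, in which 1 read is worth 0.758 to 1.79. The cDC1 markers, the genes of the CD103+ dendritic cell type, were present in all samples: their sum was 121489 to 149327 before and 29633 to 34492 after culture, with 7 of 10 lower and 3 higher. Wdfy4 held the largest part of the sum before culture, with a mean of 75717 before and 4761 after. Means fell from 18138 to 1727 for Itgae, the gene of CD103, and from 5836 to 114 for Xcr1. The 3 higher genes were Flt3, Batf3 and Zbtb46. Markers of other cells moved too. All 8 endothelial markers were lower (sum 23470.4 to 33864 before, 3290.3 to 4329.8 after), as were 7 of 7 fibroblast markers (15822 to 28809 and 2315 to 4582), the 7 tested of 8 neutrophil markers (14298 to 25015 and 932 to 1902), 5 of 5 NK cell markers (1506 to 3028 and 285 to 439) and 7 of 8 lung epithelial markers (24303 to 40538 and 5745 to 9748). The other lung epithelial marker, Foxj1, was higher, at 204 ± 33.4 before and 1550 ± 127 after culture (log2 fold change 2.93, limma adjusted p = 1.93e-10). Of the macrophage and monocyte markers 5 of 9 were lower (40778 to 64296 and 28758 to 51131). T cell markers gave 1 higher and 2 lower of 6 (4748 to 5659.8 and 4312 to 5534), and B cell markers 1 and 1 of 5 (7142 to 10364 and 5429.7 to 7570.2). No marker was at 0 in every sample, and Ly6g was at 0 in every sample after culture. In such bulk RNA, fewer cells of a type and less RNA per cell cannot be told apart, and the part of these cells in the results below was not tested except where a value is given.

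Heat shock and chaperone genes changed in both directions, in a share near that of all genes and with a smaller median change. After culture 29 of the 80 tested genes were higher and 30 lower (59 in all) at an adjusted p under 0.05 in limma, and 21 did not pass. That is 73.8% of the members, and across all 18202 tested genes 68.8% passed, 34.2% higher and 34.6% lower. At least 2-fold changes were called for 5 higher and 8 lower members, against 32.7% of all genes (14.1% higher and 18.6% lower). Values of the 2 groups did not overlap for 41 members, 20 higher and 21 lower, against 57.3% of all genes (28.7% and 28.6%). The members' median log2 fold change was −0.03 and the median size of the change, whatever its sign, was 0.39, beside 0.01 and 0.64 over all tested genes. Count models on whole reads recovered from the values called 59 members with edgeR (69.0% of all genes) and 60 with DESeq2 (69.6%).

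**Figure D1:**
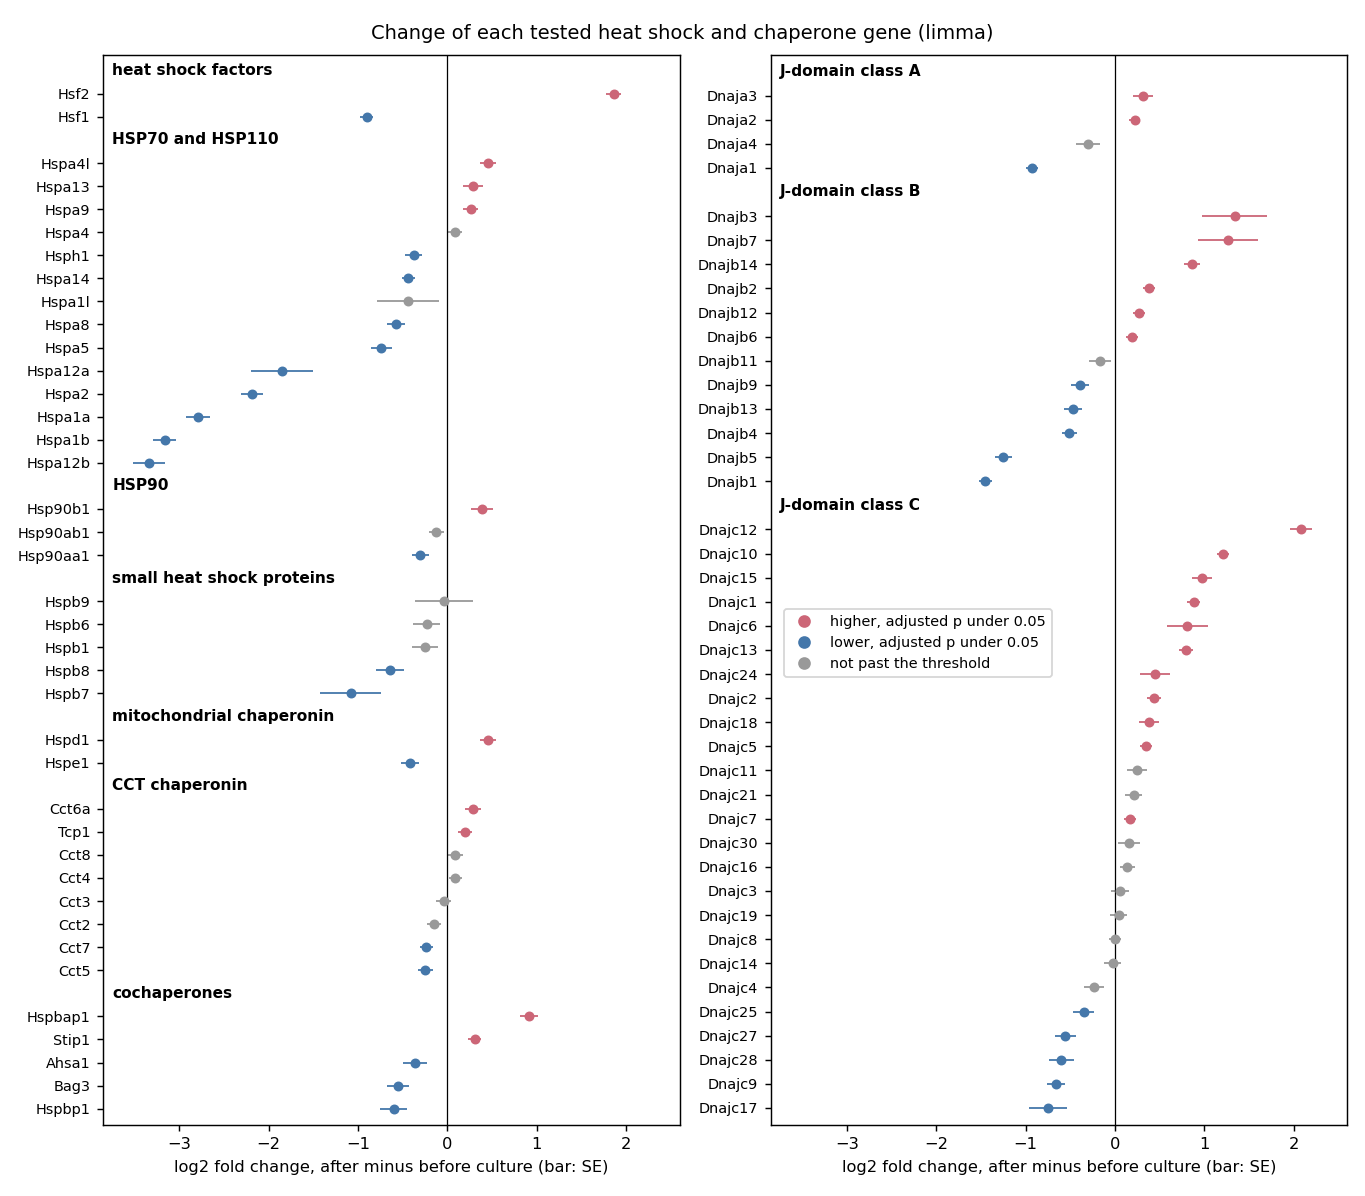
Log2 fold change after minus before culture (x axis, with SE bars) of each of the 80 tested genes, by family (y axis), coloured by whether the gene passed an adjusted p under 0.05. The HSP70 genes Hspa12b, Hspa1b, Hspa1a, Hspa2 and Hspa12a lie far to the left, while most J-domain class C genes that passed lie to the right.

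The 2 heat shock factors moved in opposite directions. Hsf1, the main activator of the heat shock response (chr15:76477422-76501913), stood at 1501, 1348, 1443, 1362 and 1572 normalized counts before and at 785, 816, 753 and 729 after culture, so every cultured sample was below every uncultured one. Its mean (± SD, n = 5 and 4, as throughout) fell 1.87-fold, from 1445 ± 94.3 to 771 ± 37.8 (change of −0.90 on the log2 scale, SE 0.07, limma adjusted p = 1.63e-07). Hsf2, another factor, which forms mixed trimers with HSF1 and is known from development (chr10:57486385-57513135), stood at 399.9, 335, 390.4, 371 and 358 before and at 1319.7, 1265, 1424 and 1379.8 after culture, again without overlap. It rose 3.63-fold, from 371 ± 25.8 to 1347 ± 69.3 (change of 1.86 on the log2 scale, SE 0.08, limma adjusted p = 3.25e-10). The ratio of Hsf2 to Hsf1 normalized counts was 0.257 ± 0.0189 before and 1.75 ± 0.168 after (SD over 5 and 4 samples), a description without a test. Both factors changed less with the GC and length correction, Hsf1 by −0.49 (limma adjusted p = 2.48e-05) and Hsf2 by 1.33 (limma adjusted p = 2.00e-08). This correction fitted, in each sample, curves of each gene's difference from its mean log2 value over all samples against GC content and length. The fitted curves were then subtracted.

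The stress-inducible HSP70 genes fell most among the highly expressed members. Hspa1a (chr17:34969190-34972156) stood at 8986, 9736, 9562, 7575 and 12081 normalized counts before and at 1062, 1589, 1471 and 1411 after culture. Hspa1b (chr17:34956436-34959238) stood at 7902, 9035, 8183, 6442 and 10085 before and at 753, 969.7, 1097 and 885 after. In both genes before 5, the shallowest library, was the highest and before 4 the lowest of the uncultured samples, and no cultured sample came near them. Hspa1a fell 6.93-fold (change of −2.79 on the log2 scale, SE 0.13, limma adjusted p = 7.53e-10) and Hspa1b 8.99-fold (change of −3.17 on the log2 scale, SE 0.13, limma adjusted p = 1.65e-10). Much of the 2 transcripts is the same sequence: 60.3% of the 50-base windows of Hspa1a and 62.3% of those of Hspa1b also occur in transcripts of other genes, mostly in each other, so how reads were split between them is uncertain. Gm20481, on the opposite strand, overlaps 19.0% of the exon bases of Hspa1a, and without a stated strand such reads cannot be told apart. Summed to 1 gene, the pair went from 17917 ± 2962 to 2309 ± 353, 7.76-fold lower (log2 fold change −2.95, SE 0.13, limma adjusted p = 3.40e-10). Immediate early genes, which cells switch on quickly upon signals or stress, moved alongside: 11 of 11 were lower, with a sum of 397574 to 507599 before and 31621 to 35549 after culture, and their part in the HSP70 change was not tested.

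**Figure D2:**
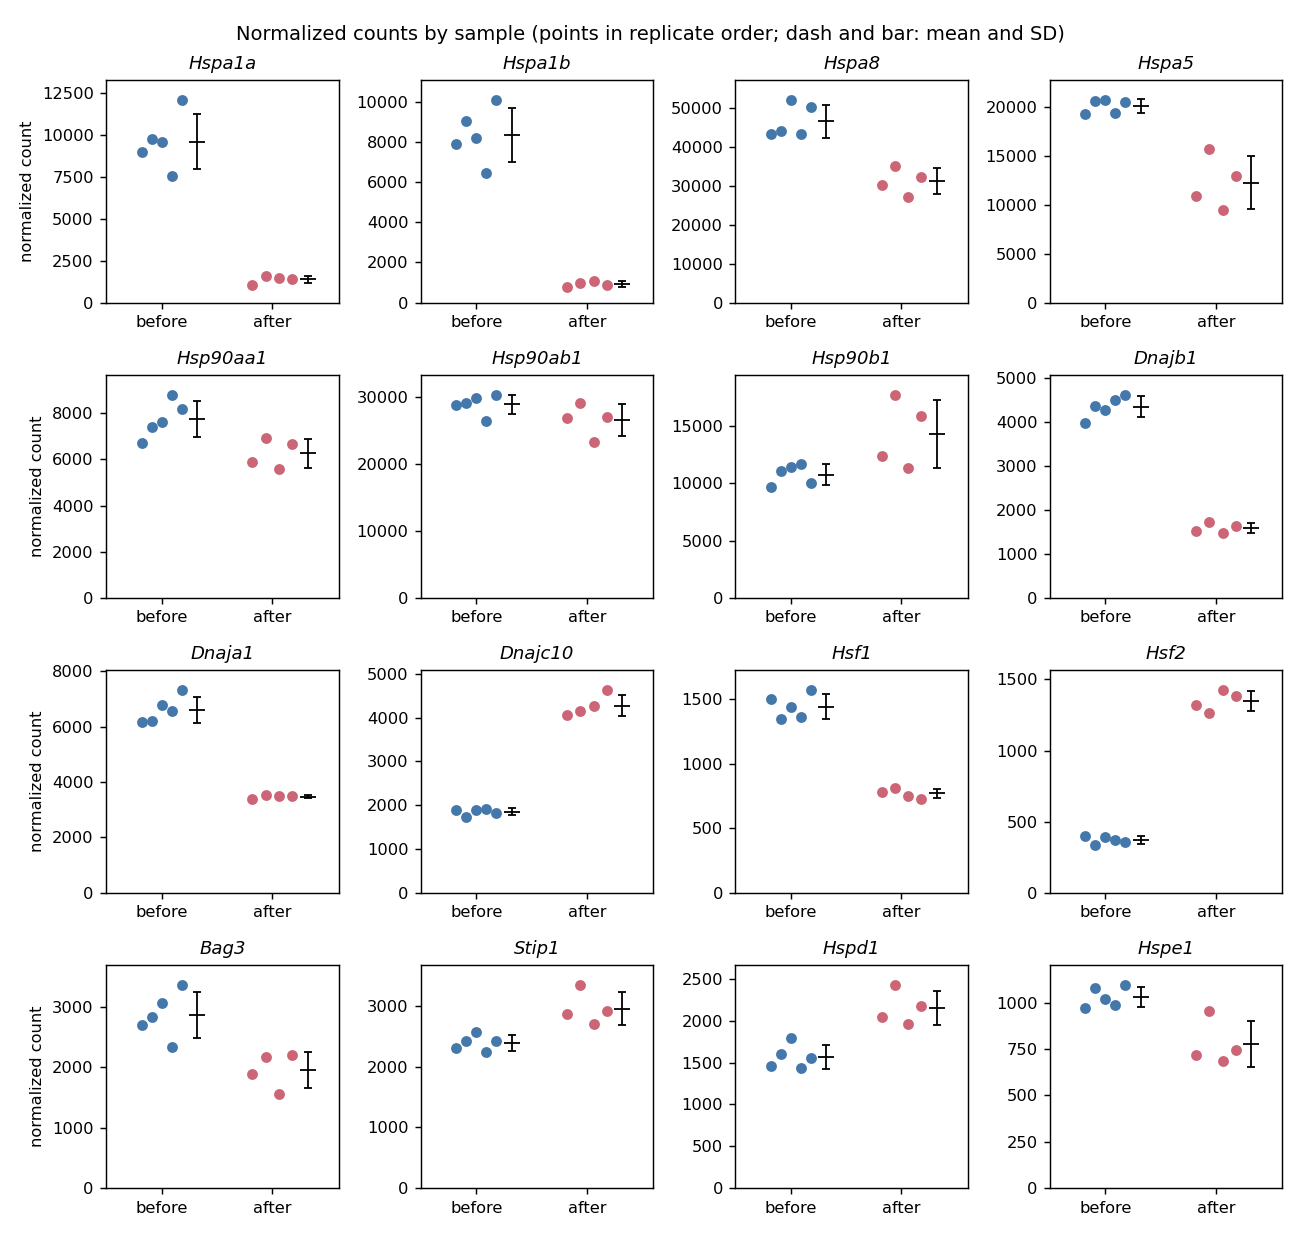
Normalized counts (y axis, from 0) of 16 members in the 5 samples before and the 4 after culture (x axis), 1 point a sample in replicate order, with a dash and bar for mean and SD. Hspa1a, Hspa1b, Dnajb1, Dnaja1 and Hsf1 fall to a lower level without overlap, Hsf2 and Dnajc10 rise, and Hsp90ab1 overlaps between groups.

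The constitutive HSP70 genes of the cytosol and ER fell by less. Hspa8, the abundant housekeeping HSP70 (HSC70, chr9:40800984-40810087), stood at 43399, 43999, 52068, 43225 and 50336 before and at 30241, 35204, 27247 and 32406 after culture, 1.49-fold lower on average (change of −0.58 on the log2 scale, SE 0.10, limma adjusted p = 1.99e-04). Hspa5, the ER member, stood at 19243, 20593, 20685, 19319 and 20474 before and at 10894, 15659, 9440.0 and 12957 after culture (change of −0.74 on the log2 scale, SE 0.12, limma adjusted p = 1.08e-04), with after 2 and after 4 above after 1 and after 3. Neither gene's groups overlapped. For Hspa8, 73.2% of windows are shared with other genes, mostly with Gm15459, so its reads may be split or pooled with those of pseudogene copies. The ratio of the inducible pair to Hspa8 was 0.384 ± 0.0511 before and 0.0744 ± 0.0144 after (SD over 5 and 4 samples).

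Among the rarer HSP70 genes, Hspa12b, a distant relative known from endothelial cells, fell most of all members. It stood at 345, 467, 452, 482 and 359.8 before and at 30.0, 34.9, 51.9 and 47.9 after culture (change of −3.34 on the log2 scale, SE 0.18, limma adjusted p = 2.31e-09), which is 10.2-fold lower, beside the fall in all 8 endothelial markers, whose part in it was not tested. Hspa2, best known from testis, stood at 773, 673, 748, 593 and 695 before and 120.1, 152, 171 and 169 after culture (change of −2.19 on the log2 scale, SE 0.12, limma adjusted p = 3.63e-09). Hspa12a, the relative of Hspa12b, stood at 323, 418, 285, 373 and 161 before and 90.1, 94.8, 142 and 36.5 after (change of −1.85 on the log2 scale, SE 0.34, limma adjusted p = 3.12e-04), and it varied widely between samples in both groups. Groups overlapped in none of these 3.

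Of the 14 HSP70 and HSP110 genes 9 fell, 3 rose and 2 did not pass, with a median log2 fold change of −0.51, and 5 of the 9 fell at least 2-fold. Over all tested genes 34.6% fell, 34.2% rose and 18.6% fell at least 2-fold. Hspa14, which works at the ribosome, changed by −0.44 on the log2 scale (limma adjusted p = 1.44e-04). Hsph1, an HSP110 that acts as nucleotide exchange factor, went from 2436 ± 237 to 1874 ± 216 (change of −0.38 on the log2 scale, SE 0.09, limma adjusted p = 0.0025). Hspa4, another HSP110, had 4124 ± 189 before and 4374 ± 417 after culture and did not pass, at 0.08 on the log2 scale (limma adjusted p = 0.36), but did with upper quartile scaling (0.19, adjusted p = 0.0264), and its relative Hspa4l rose by 0.45 on the log2 scale (limma adjusted p = 6.84e-04). Hspa9, the HSP70 of mitochondria that drives protein import, was 3399.6 ± 127 before and 4093 ± 500.1 after culture (change of 0.26 on the log2 scale, SE 0.08, limma adjusted p = 0.0119). Hspa13, which sits in the ER, rose by 0.29 on the log2 scale (limma adjusted p = 0.0319), but did not pass in 5 of the 9 fits with 1 library left out (without before 1, before 2, before 5, after 2 or after 4, adjusted p = 0.0502 to 0.11, log2 fold change 0.19 to 0.29). Hspa1l, a testis form, stood at 10.7 to 32.2 before and 9.72 to 16.4 after culture and did not pass, and Gm10501 on the opposite strand covers 71.9% of its exon bases. Correcting for GC content and length left the 9 falls in place, while the 3 rises did not pass any more: Hspa9 was then 0.04 (limma adjusted p = 0.653), Hspa4l 0.03 (limma adjusted p = 0.735) and Hspa13 −0.24 (limma adjusted p = 0.114).

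The 3 HSP90 genes changed by −0.30 to 0.39 on the log2 scale in the reported fit. Hsp90aa1, the more inducible cytosolic form, stood at 6719, 7393, 7640.2, 8791 and 8169.5 before and 5876, 6925, 5590.3 and 6685 after culture and fell (change of −0.30 on the log2 scale, SE 0.09, limma adjusted p = 0.00998). Upper quartile scaling ended that call (−0.20, adjusted p = 0.0747), while the GC and length correction gave a larger fall (−0.63, limma adjusted p = 1.55e-05). Hsp90ab1, the constitutive form, stood at 28795, 29110.1, 29913, 26529 and 30333 before and 26875, 29134, 23306 and 27121 after and did not pass (change of −0.12 on the log2 scale, SE 0.09, limma adjusted p = 0.217). Hsp90b1, the ER form that readies Toll-like receptors and integrins, stood at 9699, 11122, 11397, 11686 and 10008 before and 12368, 17734, 11333 and 15915 after (change of 0.39 on the log2 scale, SE 0.12, limma adjusted p = 0.012), where after 2 and after 4 were high and after 3 lay within the uncultured range. With the GC and length correction Hsp90b1 was at 0.04 (limma adjusted p = 0.762) and so did not pass. Of the windows of Hsp90aa1, 58.5% are shared with other genes.

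J-domain proteins went both ways: of the 41 tested of 45, 19 rose, 11 fell and 11 did not pass. That is 73.2% called, 46.3% higher and 26.8% lower, beside 68.8%, 34.2% and 34.6% of all tested genes. Dnajb1, the classic HSP40, stood at 3991, 4378, 4277, 4512 and 4620.0 before and 1517, 1737, 1479 and 1631 after culture, 2.74-fold lower (change of −1.45 on the log2 scale, SE 0.07, limma adjusted p = 1.15e-09). Dnaja1 stood at 6178, 6186, 6771, 6555 and 7312 before and at 3379.5, 3520.1, 3479 and 3496 after, 1.90-fold lower (change of −0.93 on the log2 scale, SE 0.07, limma adjusted p = 5.68e-08) and its 4 cultured samples lay close together. Both genes' groups were far apart. In class B, 6 of 12 tested rose and 5 fell, with falls also in Dnajb5 −1.25 on the log2 scale (limma adjusted p = 7.07e-08) and Dnajb4 −0.51 on the log2 scale (limma adjusted p = 1.32e-04) and a rise in Dnajb14 0.86 on the log2 scale (limma adjusted p = 1.17e-06), an ER membrane protein. With the GC and length correction Dnajb4 was at −1.17 (limma adjusted p = 2.45e-08). Dnajb2, Dnajb12 and Dnajb6 rose by 0.19 to 0.38 and Dnajb13 fell by 0.47 on the log2 scale (limma adjusted p = 8.06e-04). Dnajb6 did not pass without before 1, before 2, before 3 or after 4 (limma adjusted p = 0.0537 to 0.101). The 2 rises over 2-fold in class B were in genes with few reads: Dnajb3 at 26.5, 16.7, 29.1 and 26.6 and Dnajb7 at 34.4, 15.2, 23.7 and 35.0 normalized counts after culture, against at most 16.1 and 12.5 before. In class A, Dnaja2 was 0.22 on the log2 scale (limma adjusted p = 0.00881) and, with the GC and length correction, −0.20 (limma adjusted p = 0.0203). Dnaja4, with 44.1% of its exon bases overlapped by Wdr61 on the opposite strand, did not pass at −0.30 on the log2 scale (limma adjusted p = 0.0556), but did with a minimum mean of 50 (−0.30, adjusted p = 0.0487) and without after 4 (−0.37, adjusted p = 0.0326). Dnaja3, the mitochondrial member, rose by 0.31 on the log2 scale (limma adjusted p = 0.0278) but did not pass without after 1, after 2 or after 4 (adjusted p = 0.0541 to 0.0814).

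In class C, the largest family, 11 of 25 tested genes rose (against 2 of 4 in class A and 6 of 12 in class B), 5 fell and 9 did not pass, and its median log2 fold change was 0.17. So 44% rose and 20% fell, beside 34.2% and 34.6% of all tested genes. Dnajc12, which steadies the enzymes that hydroxylate aromatic amino acids, rose most of all members. It stood at 92.4, 105, 97.6, 81.2 and 84.1 before and 394, 427, 356 and 390.0 after culture, 4.25-fold higher (change of 2.08 on the log2 scale, SE 0.12, limma adjusted p = 5.12e-09). Dnajc10, an ER disulfide reductase, stood at 1891, 1731, 1890.4, 1917 and 1831 before and 4058, 4154, 4260.0 and 4625 after, 2.31-fold higher (change of 1.21 on the log2 scale, SE 0.07, limma adjusted p = 3.02e-09). Groups did not overlap in either gene. Dnajc15, of the mitochondrial import motor, stood at 328, 330.4, 385, 351 and 329 before and 573, 782, 593 and 778 after (change of 0.97 on the log2 scale, SE 0.11, limma adjusted p = 5.17e-06), the cultured samples falling into after 1 and after 3 below after 2 and after 4. Other rises were Dnajc1, an ER membrane protein, at 0.88 on the log2 scale (limma adjusted p = 1.26e-07), and Dnajc13, which acts on endosomes, at 0.79 on the log2 scale (limma adjusted p = 9.83e-07). Falls included Dnajc9, a histone chaperone, at −0.66 on the log2 scale (limma adjusted p = 8.02e-05), and Dnajc17, tied to splicing, at −0.75 on the log2 scale (limma adjusted p = 0.00631). Dnajc6, Dnajc24, Dnajc2, Dnajc18, Dnajc5 and Dnajc7 also rose, by 0.17 to 0.81, and Dnajc27, Dnajc28 and Dnajc25 fell, by 0.35 to 0.60. Single libraries decided the calls of Dnajc7, Dnajc24 and Dnajc25. Dnajc7 passed in 2 of 9 fits with 1 library left out, those without after 2 or after 4 (limma adjusted p up to 0.0969 in the others). Dnajc24 did not pass without before 2, after 1 or after 2 (0.0738 to 0.0951), nor Dnajc25 without after 1 (0.0535). With the GC and length correction Dnajc2 was at 0.12 (limma adjusted p = 0.166) and Dnajc24 at 0.22 (limma adjusted p = 0.253), so neither passed. Quantile normalization ended the call of Dnajc25 (−0.19, adjusted p = 0.154) and Dnajc7 (0.17, adjusted p = 0.0664), and upper quartile scaling that of Dnajc25 (−0.24, adjusted p = 0.0684). Those that did not pass were Dnajc3, Dnajc4, Dnajc8, Dnajc11, Dnajc14, Dnajc16, Dnajc19, Dnajc21 and Dnajc30, at −0.24 to 0.25. Of them, Dnajc11 passed without before 2, before 3 or after 3 (limma adjusted p = 0.0226 to 0.0485), Dnajc21 without before 5 (0.0278) and Dnajc4 without before 4 (0.0114). Upper quartile scaling gave 14 higher and 4 lower in class C, and the GC and length correction 12 and 8.

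ER members did not move as one, a grouping made after the values were seen. Of 10 members known from the ER (Hspa5, Hsp90b1, Hspa13, Dnajb9, Dnajb11, Dnajb12, Dnajb14, Dnajc1, Dnajc3 and Dnajc10) 6 rose, 2 fell and 2 did not pass. Further members may belong to the ER and are not among these 10, so the split depends on the choice. Over all tested genes 34.2% rose and 34.6% fell. Dnajb9, which recruits Hspa5's protein to its stress sensor, went from 1567 ± 157 to 1199.8 ± 169.8 (change of −0.39 on the log2 scale, SE 0.10, limma adjusted p = 0.00447). Dnajc3, a cochaperone of the ER lumen, had 3073 ± 170.2 before and 3217 ± 515 after culture and did not pass (change of 0.05 on the log2 scale, SE 0.10, limma adjusted p = 0.638). With the GC and length correction Dnajc3 read −0.23 (limma adjusted p = 0.0409). Among the 6 rises, Hsp90b1 (0.04, limma adjusted p = 0.762) and Hspa13 (−0.24, limma adjusted p = 0.114) then did not pass. Dnajb12, Dnajb14, Dnajc1 and Dnajc10 still did. Dnajb11 did not pass at −0.17 on the log2 scale (limma adjusted p = 0.226), but did without after 2 (−0.28, adjusted p = 0.0412). Among the cultured samples, after 2 and after 4, the deepest libraries, held the 2 highest values in 5 of these 10 members and in 12 of the 13 other ER folding genes on the fixed lists, against 26.9% of all tested genes and 36 of the 80 members. The part of depth in this was not tested.

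Among small heat shock proteins, which hold unfolded clients without ATP, 5 of 7 were tested and 2 fell, beside 34.6% of all tested genes. Hspb1, the HSP27 gene, stood at 488, 533, 641, 451 and 469 before and 341, 558, 449 and 399 after culture and did not pass (change of −0.25 on the log2 scale, SE 0.14, limma adjusted p = 0.129), except without after 2 (−0.38, adjusted p = 0.0212). Hspb8, which works with Bag3 in selective autophagy, stood at 169, 189, 239, 212 and 181 before and 108, 111, 166 and 126 after (change of −0.64 on the log2 scale, SE 0.16, limma adjusted p = 0.00244), without overlap. Hspb7 had 37.2 ± 16.5 before and 16.0 ± 4.56 after culture (change of −1.08 on the log2 scale, SE 0.34, limma adjusted p = 0.0119) and, with the GC and length correction, did not pass at −0.66 (limma adjusted p = 0.0849). Of the windows of Hspb1, 51.6% are shared with other genes. Hspb3 had no read in any sample, which with a limit of 3 reads allows up to 2.27 to 5.37 normalized counts.

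Hspd1 and Hspe1, the barrel and the lid of the mitochondrial chaperonin, moved in opposite directions, and their genes lie head to head. Hspd1 (chr1:55077835-55088243, minus strand) stood at 1463, 1601, 1792, 1435 and 1556 before and 2041, 2424, 1959 and 2179 after culture (change of 0.45 on the log2 scale, SE 0.09, limma adjusted p = 3.84e-04). Hspe1 (chr1:55088132-55091307, plus strand) stood at 975, 1080.3, 1023, 987 and 1095 before and 719, 959, 689 and 747 after (change of −0.42 on the log2 scale, SE 0.10, limma adjusted p = 0.00189). The ratio of Hspe1 to Hspd1 was 0.661 ± 0.0521 before and 0.361 ± 0.0237 after (SD over 5 and 4 samples). The 2 gene spans overlap at their starts. In the basic transcript set of GENCODE M21 the Hspd1 start is at chr1:55088024, 108 bases from that of Hspe1, and the run of units printed above for Hspe1 (chr1:55088059-55088076) lies between those 2 starts. Of Hspd1, 44.8% and of Hspe1, 36.1% of windows are shared with other genes, mostly with Hspd1-ps3 and AC117239.2, so both values may hold reads of pseudogene copies.

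The CCT ring stayed within a narrow band. Of its 10 genes 8 were tested, 2 rose, 2 fell and 4 did not pass, no gene's groups were apart, and the largest change was 0.29 on the log2 scale, in Cct6a. Among all tested genes 34.2% rose, 34.6% fell and 57.3% had groups that did not overlap. Tcp1, the subunit alpha, stood at 2677, 2784, 2963, 3101 and 2728 before and 3093, 3634, 3022 and 3337 after culture (change of 0.20 on the log2 scale, SE 0.08, limma adjusted p = 0.034), and did not pass in 5 of 9 fits with 1 library left out (without before 1, before 2, before 5, after 2 or after 4, adjusted p = 0.069 to 0.107), nor without a filter on low values (0.20, adjusted p = 0.0541). Cct2, the subunit beta, stood at 4250.4, 4186, 4478, 4523 and 4516 before and 3733, 4455, 3471 and 4178 after (change of −0.16 on the log2 scale, SE 0.08, limma adjusted p = 0.0973). It did not pass, but did with the GC and length correction (−0.33, adjusted p = 0.00151), with quantile normalization (−0.15, adjusted p = 0.05) and without after 2 (−0.21, adjusted p = 0.0257). Cct5 fell by 0.25 on the log2 scale (limma adjusted p = 0.019), but not without before 3 (−0.21, adjusted p = 0.0521) or after 3 (−0.18, adjusted p = 0.0596). After 2 was the highest cultured sample in 8 of the 8 subunits and after 3 the lowest in 7. The direction of the family depended on the scaling: upper quartile scaling, which moved the median of all genes to 0.11, gave 4 higher and 0 lower, the GC and length correction 0 and 4.

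All 5 cochaperones passed, 2 higher and 3 lower, as did 68.8% of all tested genes. Bag3, which links HSP70 to autophagy, stood at 2705, 2836, 3069.5, 2334 and 3354 before and 1883, 2169, 1557 and 2202 after culture (change of −0.55 on the log2 scale, SE 0.12, limma adjusted p = 9.94e-04). Stip1, the adaptor that passes clients from HSP70 to HSP90, stood at 2309, 2432, 2579, 2241 and 2425 before and 2872, 3348, 2714 and 2924 after and rose (change of 0.30 on the log2 scale, SE 0.08, limma adjusted p = 0.00298). Hspbap1, a partner of HSP27, rose the most, from 289 ± 28.4 to 544 ± 39.7 (change of 0.91 on the log2 scale, SE 0.10, limma adjusted p = 3.16e-06). Ahsa1, which speeds the HSP90 ATPase, stood at 1164, 1139.7, 1243, 835 and 1128 before and 846, 1061, 675 and 853 after (change of −0.36 on the log2 scale, SE 0.13, limma adjusted p = 0.0272), with before 4 well below the other uncultured samples. The Ahsa1 call was lost in 7 of 9 fits with 1 library left out (all but those without before 4 or after 2, adjusted p = 0.0514 to 0.0901, log2 fold change −0.37 to −0.26), and with upper quartile scaling (−0.26, adjusted p = 0.0818). Hspbp1, an exchange factor, fell by 0.60 on the log2 scale (limma adjusted p = 0.00292). With the GC and length correction Bag3 was at −0.20 (limma adjusted p = 0.0862), Ahsa1 at −0.23 (limma adjusted p = 0.0985) and Hspbp1 at −0.09 (limma adjusted p = 0.504), so none of the 3 falls passed.

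Genes outside the family that serve the same machines gave mixed counts. Of 13 HSP90 cochaperones 6 rose and 5 fell (median −0.15), with Unc45a going from 1801 ± 80.3 to 709 ± 66.6 (log2 fold change −1.35, limma adjusted p = 5.53e-09) and Chordc1 from 858 ± 49.8 to 1800.2 ± 119 (log2 fold change 1.07, limma adjusted p = 3.17e-08). Of 13 exchange factors and partners of HSP70, 3 rose and 5 fell (median −0.23), among them Sil1, the exchange factor of Hspa5's protein, from 375 ± 48.2 to 167 ± 26.0 (log2 fold change −1.16, limma adjusted p = 4.04e-06). Of 9 prefoldin and CCT partners 4 rose and 1 fell (median 0.09). Of 7 other genes linked to HSF1, 1 rose and 4 fell (median −0.66), including Dedd2 from 1501 ± 107 to 628 ± 45.7 (log2 fold change −1.26, limma adjusted p = 1.35e-08). ER folding enzymes and lectins gave 2 rises and 3 falls of 11 (median −0.10), with Canx, the lectin calnexin, from 11392 ± 762 to 16026 ± 2145 (log2 fold change 0.49, limma adjusted p = 4.60e-04). With the GC and length correction Canx did not pass (0.10, adjusted p = 0.383), while Chordc1 (0.36, adjusted p = 0.00199) and Dedd2 (−0.63, adjusted p = 1.90e-05) did. Unc45a and Sil1 passed too. Calls also ended for Ptges3, Ppid, Ppp5c, Cacybp, Ahsa2, Bag1, Bag6, St13, Hikeshi and Hyou1. The same held for Pdcl3, Txndc9, Serpinh1, P4hb, Creld2, Lonp1 and Spg7. Conversely, Tomm34, Stub1, Sgta, Pfdn4, Pdia3 and Clpp did not pass in the reported fit but did with the correction. So these counts depend on it. Mitochondrial chaperones and proteases gave 1 rise and 4 falls of 7 (median −0.23). The same median over all tested genes was 0.01, and 34.2% of them rose and 34.6% fell.

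Summed per kb of transcript, so that genes can be compared, the members' level was 86318 ± 4408 before and 71583 ± 6772 after culture. HSP70 and HSP110 genes made up 40.6 ± 1.13% before and 29.1 ± 0.748% after culture of that sum, and the inducible pair Hspa1a and Hspa1b 7.16 ± 0.93% before and 1.12 ± 0.197% after culture. HSP90 genes made up 20.5 ± 0.556% before and 24.5 ± 0.749% after culture, CCT genes 12.6 ± 0.329% before and 15.0 ± 0.0577% after culture and class C J-domain genes 8.58 ± 0.329% before and 12.6 ± 0.776% after culture. Ranges of HSP70 and HSP110 shares did not overlap, nor did those of the other 3 families named here. Hspa8 was the highest member and Hsp90ab1 the second in both groups, per kb, while Hspa1a went from rank 5 to 38 and Hspa1b from 6 to 45 of the 88. A share moves when any other member moves, so these are descriptions without a test.

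**Figure D3:**
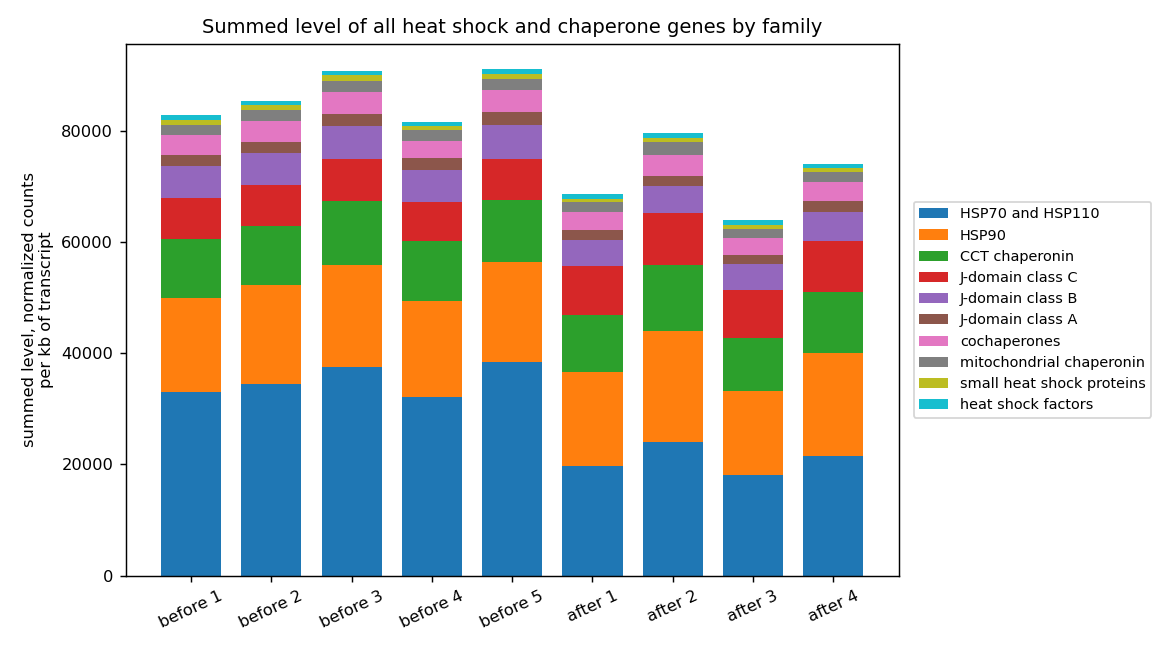
Summed level of all 88 members in normalized counts per kb of transcript (y axis, from 0) in each sample (x axis), stacked by family. The HSP70 and HSP110 block takes 39.3 to 42.1% of the bar before culture and 28.4 to 30.2% after.

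Promoter windows, from 250 bases before to 50 after a start, were matched for 72 of the 88 members (91 windows, RefSeq, GRCm38.p6), and motifs were counted on both strands. The 16 members without a window include Hspa8, Hsp90aa1, Hsp90ab1 and Hsf1. GAANNTTC was in 17 members (23.6%) against 9.04% of 27025 genes with a window. Of the 14 tested members with it 2 rose and 8 fell (median log2 fold change −0.40), and of the 53 tested without it 21 rose and 19 fell (median 0.04). These members are not independent: Hspa1a and Hspa1b have nearly the same window, and Hspd1 and Hspe1 match through 1 shared site. Whether the motif goes with the change was not tested. TTCNNGAA, the tail-to-tail pair, was in 8 members (11.1%) against 9.60% of genes. Matches of 3 units, TTCNNGAANNTTC or its mirror, which hold both pairs, were in Dnajb6, Hspd1, Hspe1 and Hsph1 (5.56% against 0.662%). Runs of 4 units, starting with either TTC or GAA, were in the windows of 8 genes. Hspe1 and Hspd1 are among these 8, through the same site. The ER stress element was in Hspa5, Hsp90b1 and Dnajc3, against 0.137% of all genes: 1 fell, 1 rose and 1 did not pass. Dnajb1 holds no GAA pair in this window. A match is a description of the letters, not a bound site.

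**Figure D4:**
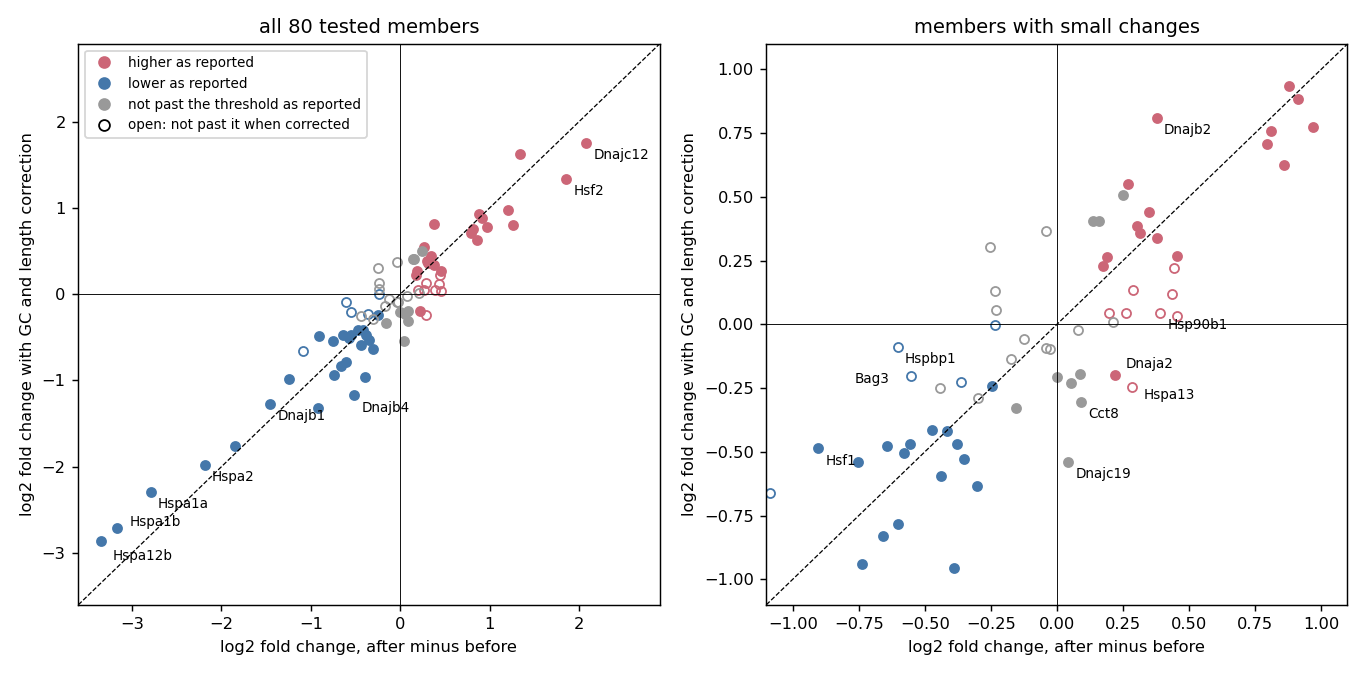
Log2 fold change of the 80 tested members as reported (x axis) against the value with the GC and length correction (y axis), all members at left and small changes at right, with the line of equal values. Large changes such as Hspa1b, Hspa2, Dnajc12 and Hsf2 keep their side of 0, while open points near 0, such as Hsp90b1, Bag3 and Hspbp1, do not pass after the correction.

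Of the 59 calls, 39 (17 higher and 22 lower) passed in the same direction in every fit in which the gene was tested. These 39 include 9 of 12 calls in HSP70 and HSP110, all falls, both heat shock factors, Hspd1 and Hspe1, 10 of 11 class B and 12 of 16 class C calls. They include 0 of 4 CCT calls and 0 of 2 HSP90 calls. Dnajb3, Dnajb7 and Dnajc6, also among the 39, have few reads and were tested in 21 fits, the others in 22. The same share over all called genes was not computed, so these counts have no background beside them.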

How the data were processed

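The authors deposited 1 table, whose values are normalized counts of each gene (a signal, never below 0). The submitters' processing notes name DESeq2 and GRCm38. The aligner, the counting tool, strandedness and the annotation are not given in the sources used here. Per the labels' protocols, RNA was purified on Qiagen columns, with libraries and sequencing by Azenta, and the protocol text speaks of lung RNA. All values (100%) were whole multiples of 1 read, within 1e-06 reads, so whole reads were recovered. Rows without a symbol (3782, 6.43 to 10.9% of reads before and 3.87 to 5.46% after culture) were left out.

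Genes with a mean of at least 10 (18202) were fitted on log2(value + 1) with limma 3.58.1 (R 4.3.3) by a two-sided test with a mean-variance trend and Benjamini-Hochberg adjusted p-values over all of them. Fold changes on that scale understate low genes. Alternatives were pseudocounts of 0.5 and 8, no filter, a minimum mean of 50, upper quartile, TMM and quantile scaling, edgeR 4.0.16, DESeq2 1.42.0, replicate blocks, a GC and length correction and leaving out each library. Scripts were tested on simulated data. Lengths, coordinates and shared 50-base windows came from GENCODE M21 and promoters from RefSeq, both GRCm38. Shares per kb used the longest protein-coding transcript, or for Cct6a, which GENCODE M21 annotates as a processed transcript, its longest transcript. Reads carry no molecular identifiers here, so limits from 3 reads cover counting error only.

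The members and gene lists were chosen with earlier results of these data known, and 2 genes of the related lists are not reported here. Full values are given for 25 members fixed by name and for the 5 largest rises and falls among members that average 100 or more without overlap, and any other member is named with its value.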

Additional observations from a re-analysis of the deposited data

Results flagged for a closer look

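Ahsa1, in before 4, had 835 normalized counts, far below the other 4 uncultured samples for a group of 5 by Dixon's test. It was the 1 outlier among 64 groups checked, and chance flags about 1 group in 20. Pseudogene rows left out by the rule held reads above the limit of 3: the highest normalized count was 7.85 in Dnajb6-ps, 8.19 in Hsp25-ps1, 10.9 in Hspe1-ps2, 38.8 in Hspe1-ps3 and 41.5 in Hspe1-ps5.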

How the results depend on the processing

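The count of heat shock and chaperone genes called was 59 (29 higher, 30 lower) and stayed between 52 and 61 under the other pseudocounts, filters, scalings, tests, blocks and the GC and length correction. The higher count ran from 23 to 35 and the lower from 25 to 32. Leaving out 1 library at a time gave 54 to 59 calls, 25 to 29 higher and 28 to 33 lower. Where a gene passed in the reported fit or the alternative, its sign changed only under the GC and length correction (values for 17564 of 18202 genes): among members Cct4 −0.20, Cct8 −0.31, Dnaja2 −0.20, Dnajc19 −0.54, Dnajc3 −0.23, Dnajc8 −0.21, Hspa13 −0.24, and among genes of the related lists Ahsa2 −0.080, Tomm34 0.17, Stub1 0.34, Sgta 0.22, Pfdn4 −0.58, Vbp1 −0.54, Spg7 0.16. Another 26 values of 10 members and 16 of 9 listed genes changed sign without passing in either fit: with upper quartile scaling Cct3 0.068, Dnajc14 0.083, Hspb9 0.064, Grpel1 0.059, Pdia3 0.0073, Ero1b 0.057 and Clpb 0.041, with TMM scaling Dnajc14 0.0037, with quantile normalization Dnajc8 −0.0097, Hspb9 0.094, Bag2 0.060 and Clpb 0.041, with edgeR Dnajc8 −0.00054, with the block by title number Hspb9 0.15, with the block by library number Dnajc8 −0.00097, with the GC and length correction Dnajc4 0.13, Hspa4 −0.021, Hspb1 0.30, Hspb6 0.056, Hspb9 0.37, Cdc37 0.030, Pfdn5 0.075 and Clpb 0.16. The leave-one-out fits among them ran, over all 9 fits of a gene, for Calr from −0.025 to 0.21, Cct3 from −0.11 to 0.029, Clpp from −0.024 to 0.093, Dnajc14 from −0.068 to 0.069, Dnajc19 from −0.0032 to 0.082, Dnajc3 from −0.033 to 0.12, Dnajc8 from −0.027 to 0.032, Ero1b from −0.11 to 0.035, Hspb9 from −0.17 to 0.17 and Pdia3 from −0.20 to 0.0022. The cause was not tested. Upper quartile scaling put the median of all genes at 0.11 and the members' split at 35 higher and 25 lower. A replicate block by title number gave 52 calls (26 higher, 26 lower) and one by library number 59 (29 and 30). Correlations of same-numbered samples were −0.21 to 0.08 by title and 0.04 to 0.35 by library number, where all 4 cultured samples correlated best with their own number, a hint from the data and not the design, and before 5 correlated best with after 1. Over 80 members and the alternatives, 1545 values kept their call and direction, 67 lost and 29 gained the call and 33 changed sign. Without a filter on low values 44.8% of 31592 genes passed, against 68.8% of 18202. Hspa1l and Hspb9 rest on few reads in every sample.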
